A study of Homo sapiens with 12 samples.

Results

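Transcripts of 9 histone acetyltransferase genes were followed across 2 human cell lines exposed to mithramycin: CREBBP, EP300, KAT2A, KAT2B, KAT5, KAT6A, KAT6B, KAT7 and KAT8. The array read them through 23 of its 54613 non-control probe sets, and they are 9 of the 19775 genes it names. A probe set is a group of short oligonucleotides aimed at 1 transcript. A set was taken where the platform annotation gave it 1 member symbol alone, with older aliases such as MYST3 brought to current symbols through their Entrez identifier. This gave 5 sets for KAT6B, 4 each for CREBBP and KAT6A, 3 for KAT5, 2 each for EP300 and KAT8, and 1 each for KAT2A, KAT2B and KAT7. TC32 and TC71 are established lines of Ewing sarcoma, a tumour driven by a fusion of EWSR1 with an ETS factor such as FLI1. Their 4 groups were TC32 with solvent, TC32 with 100 nM mithramycin, TC71 with solvent and TC71 with 100 nM mithramycin, each collected after 6 h. Mithramycin is an antibiotic that binds GC-rich DNA and displaces factors of the Sp family. Each group had 3 replicates that the labels call biological, with 1 array each, and the number of arrays limits the precision of every value. The labels name no passage or culture of origin, so the p-values measure the spread between these dishes.

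Histone acetyltransferases move an acetyl group from acetyl-CoA onto lysines of histone tails, which loosens chromatin and gives bromodomain proteins a place to bind. CBP (CREBBP) and p300 (EP300) are large paralogous coactivators that acetylate histone H3 at enhancers and promoters. KAT2A (GCN5) and KAT2B (PCAF) are alternative catalytic subunits of the SAGA and ATAC complexes. The MYST family holds KAT5 (TIP60), KAT6A (MOZ), KAT6B (MORF), KAT7 (HBO1) and KAT8 (MOF), each of which works inside a complex of several subunits. In Ewing sarcoma the fusion factor is known to recruit p300 to the enhancers it creates.

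Since mithramycin is known for its binding to GC-rich sequence, the promoter windows of the members are shown before the values. RefSeq windows of 300 bases (build GRCh38.p14), 250 before the transcription start and 50 after it, were found for 7 of the 9 genes. KAT6A and KAT8 had no window. The motif searched was the GC box GGGCGG and its reverse complement CCGCCC, on both strands and with overlaps counted. Of the 35116 windows in the table, 45.0% held at least 1 such box, and their median GC content was 58.7%. CREBBP had 2 windows, with 82.0% GC and 4 boxes in one and 70.3% GC and 3 boxes in the other, while EP300 had 75.3% GC and 0 boxes. The window of KAT2B had 80.3% GC and 4 boxes, that of KAT5 67.3% and 1, that of KAT7 57.7% and 0, and that of KAT2A 62.0% and 0. KAT6B had 3 windows with 1, 10 and 1 boxes. The 250 bases before the start are printed for the paralogs CREBBP and EP300, whose transcripts fell, and for KAT2A, whose transcript rose. KAT8, which also rose at its brightest set, had no window to print. They lie at chr16:3880714-3880963 (minus strand), chr22:41092342-41092591 (plus strand) and chr17:42121368-42121617 (minus strand). Each is written 5' to 3' along the gene's strand, with GC boxes in capitals.
CREBBP: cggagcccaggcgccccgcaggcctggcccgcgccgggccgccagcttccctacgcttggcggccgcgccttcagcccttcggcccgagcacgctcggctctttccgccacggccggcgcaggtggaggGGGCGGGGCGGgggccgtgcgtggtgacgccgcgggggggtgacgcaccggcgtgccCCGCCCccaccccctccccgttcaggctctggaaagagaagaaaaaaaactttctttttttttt
EP300: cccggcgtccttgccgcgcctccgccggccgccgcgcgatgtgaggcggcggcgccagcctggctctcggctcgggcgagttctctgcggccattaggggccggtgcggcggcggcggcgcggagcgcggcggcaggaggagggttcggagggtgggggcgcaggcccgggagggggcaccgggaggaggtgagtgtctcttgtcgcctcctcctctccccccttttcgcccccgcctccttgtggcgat
KAT2A: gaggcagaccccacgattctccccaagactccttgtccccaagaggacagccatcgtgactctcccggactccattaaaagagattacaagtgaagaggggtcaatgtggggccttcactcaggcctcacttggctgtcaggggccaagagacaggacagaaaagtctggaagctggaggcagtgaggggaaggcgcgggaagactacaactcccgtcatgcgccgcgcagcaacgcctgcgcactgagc
The CREBBP stretch holds 3 boxes, which begin 121, 116 and 64 bases before the start, and those at 121 and 116 overlap by 1 base. Of the 2 CREBBP windows the one that begins farther upstream is printed, with 72.4% GC in the stretch shown, and the other is the one with 82.0% GC and 4 boxes. The EP300 stretch has 76.8% GC and no box. A match of letters is a description and no measurement of binding, and its relation to the changes was not tested.

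Values are log2 array values, normalized by the submitters with RMA, and 1 unit is a factor of 2. A change is the mean of the mithramycin arrays minus that of the solvent arrays, with the standard error of a linear model over all 12 arrays. A set was called where its two-sided limma p, adjusted by Benjamini-Hochberg over all 54613 sets, was under 0.05. Arrays of 1 group correlated at 0.9948 or higher, above every correlation between groups (at most 0.9867), and the array medians lay between 4.38 and 4.47. The 3' minus 5' difference of beta-actin, a sign of RNA integrity, lay between 0.51 and 1.28 on 11 arrays and at 2.0 in TC71 control replicate 1. It moved with treatment in TC71, where it was 1.45 ± 0.48 (SD, n = 3) with solvent and 0.88 ± 0.10 with mithramycin and all solvent arrays lay above all treated ones. In TC32 it was 0.71 ± 0.04 and 0.60 ± 0.08. Ewing sarcoma markers were bright, with 7 of 8 analysed and all of their values between 6.04 and 12.2. Of 10 blood, epithelial and endothelial markers 9 were analysed, and 8 of them stayed below the lowest array median on every array. The exception was PECAM1, at most 5.29. As the RNA is from whole dishes, fewer cells with a transcript and less transcript per cell cannot be told apart.

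Across the 23 sets, most of the acetyltransferase transcripts fell with mithramycin and those of KAT2A and KAT8 rose. In TC32 16 sets were called lower and 2 higher, where 16.9% of all sets were called lower and 19.4% higher. In TC71 15 were lower and 2 higher, against 13.7% and 14.5% of all sets. In the mean of both lines 17 were lower and 2 higher, against 19% and 26.4%. The median change of the 23 sets was -0.56 in the mean of both lines, and that of all sets was 0.06. Only 4 of the sets were not called in that mean, 2 of CREBBP, 1 of KAT6A and 1 of KAT8. At the brightest set of each gene, 7 of the 9 genes fell and 2 rose when the lines were averaged. Of all genes 20.2% fell and 30.9% rose there, a split that became 26.6% and 15.5% with arrays centred on housekeeping genes and 19.1% and 17.2% with centring on hybridization controls. No called member set changed sign under either centring or a repeated quantile normalization. Without TC71 control replicate 1 the TC71 counts were 14 lower and 2 higher. With the beta-actin difference as a term they were 12 and 2. The lost calls were those of KAT2B, KAT5 at 214258_x_at and KAT6B at 1562236_at. Over all sets the TC71 calls were 7471 lower and 7923 higher in the main fit, and 5468 and 4009 with this term. Of the 12 member sets with a mean of at least 6, 10 fell and 2 rose for the averaged lines, where 33.2% of such bright sets fell and 34.8% rose.

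**Figure D1:**
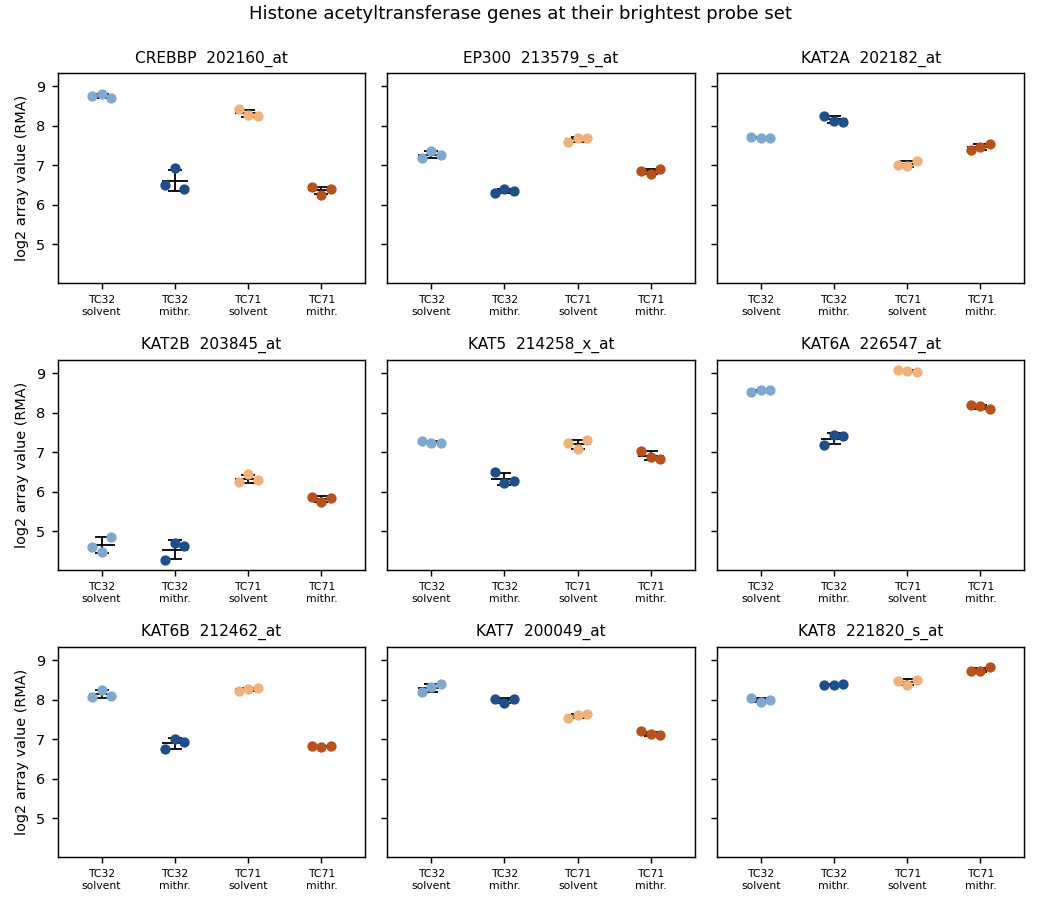
Log2 array value of each gene at the set with the highest mean, for the 4 groups of 3 arrays; points are arrays and bars are the mean ± SD. CREBBP drops from 8.75 to 6.61 in TC32 and from 8.32 to 6.37 in TC71, KAT2A and KAT8 go up in both lines, and KAT5 drops mainly in TC32; heights are not comparable between genes, since probes differ.

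Compared at the brightest set of each gene, CREBBP had the largest fall of the 9 genes. At that set, 202160_at, the TC32 solvent arrays read 8.75, 8.80 and 8.70 and the mithramycin arrays 6.51, 6.92 and 6.41. The TC71 solvent arrays read 8.42, 8.28 and 8.25 and the mithramycin arrays 6.45, 6.26 and 6.39. In each line the treated arrays lay far below every solvent array. CREBBP fell by 2.14 ± 0.11 in TC32, a 4.41-fold drop (adjusted p = 1.58e-08), and fell by 1.95 ± 0.11 in TC71, a 3.87-fold drop (adjusted p = 5.29e-08). The 2 falls differed by 0.19 ± 0.16, which was not called (adjusted p = 0.613).

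The other CREBBP sets did not all move with it. Set 228177_at went from 6.71, 6.78 and 6.77 with solvent to 5.21, 5.02 and 4.90 with mithramycin in TC32. In TC71 it went from 6.61, 6.27 and 6.47 to 5.06, 5.29 and 5.29, again with no overlap of the groups. It fell by 1.71 ± 0.10 (adjusted p = 4.57e-08) and 1.23 ± 0.10 (adjusted p = 1.22e-06), and the difference of 0.47 ± 0.14 was not called (adjusted p = 0.0753). This second set therefore showed the same direction at a lower signal.

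Sets 211808_s_at and 235858_at lay near or below the array medians, where an array reads small differences poorly. For 211808_s_at the TC32 arrays read 4.61, 4.16 and 4.75 with solvent and 4.22, 4.06 and 4.15 with mithramycin, a change of -0.36 ± 0.15 (adjusted p = 0.0791). Its TC71 arrays read 3.91, 4.46 and 4.31 and then 4.23, 4.07 and 4.09, a change of -0.10 ± 0.15 (adjusted p = 0.685). The groups overlapped in both lines. The TC32 change was called in 6 of the alternative fits, at -0.54 (adjusted p = 9.38e-03) without TC32 control replicate 2 and at -0.36 (adjusted p = 0.0456) without TC71 control replicate 1. Set 235858_at read 3.87, 4.03 and 3.83 in TC32 with solvent and 4.17, 3.98 and 3.98 with mithramycin. In TC71 it read 3.55, 3.65 and 3.80 and then 3.87, 3.87 and 3.78. Its changes of 0.13 ± 0.08 and 0.17 ± 0.08 were not called (adjusted p = 0.242 and 0.159), and its groups overlapped in TC32 and in TC71. In the mean of both lines it was at 0.15 ± 0.06 (adjusted p = 0.0529). That mean was called higher, at 0.17 to 0.19, without TC32 mithramycin replicate 2, TC32 control replicate 2 or TC71 control replicate 3. With the 4 sets averaged, CREBBP stood at -1.02 in TC32 and -0.78 in TC71. The same average gave EP300 -0.98 and -0.93 and KAT6B -0.78 and -0.91. In the mean of both lines it gave EP300 -0.95, CREBBP -0.90 and KAT6B -0.85. By this measure CREBBP did not have the largest fall in TC71 or in the mean of both lines.

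EP300 fell at both of its sets and in both lines. At the brightest, 213579_s_at, the TC32 arrays read 7.20, 7.36 and 7.26 with solvent and 6.30, 6.41 and 6.34 with mithramycin. The TC71 arrays read 7.58, 7.70 and 7.68 with solvent and 6.86, 6.78 and 6.90 with mithramycin. Treated and solvent arrays did not overlap in either line. EP300 fell there by 0.93 ± 0.07 in TC32, 1.90-fold (adjusted p = 2.90e-07), and by 0.81 ± 0.07 in TC71, 1.75-fold (adjusted p = 1.45e-06).

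At the second EP300 set, 202221_s_at, the TC32 values were 6.46, 6.35 and 6.11 with solvent and 5.16, 5.51 and 5.16 with mithramycin. The TC71 values were 7.50, 7.34 and 7.19 and then 6.26, 6.26 and 6.37. The falls were 2.05-fold in TC32 and 2.07-fold in TC71, at -1.03 ± 0.12 and -1.05 ± 0.12 (adjusted p = 1.34e-05 and 1.65e-05). Neither set differed between the lines in its response, with differences of 0.12 ± 0.10 and -0.02 ± 0.16 (adjusted p = 0.594 and 0.978). The TC71 arrays were higher than the TC32 arrays at each treatment, so that mithramycin brought TC71 to about the level of untreated TC32 at this set.

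**Figure D2:**
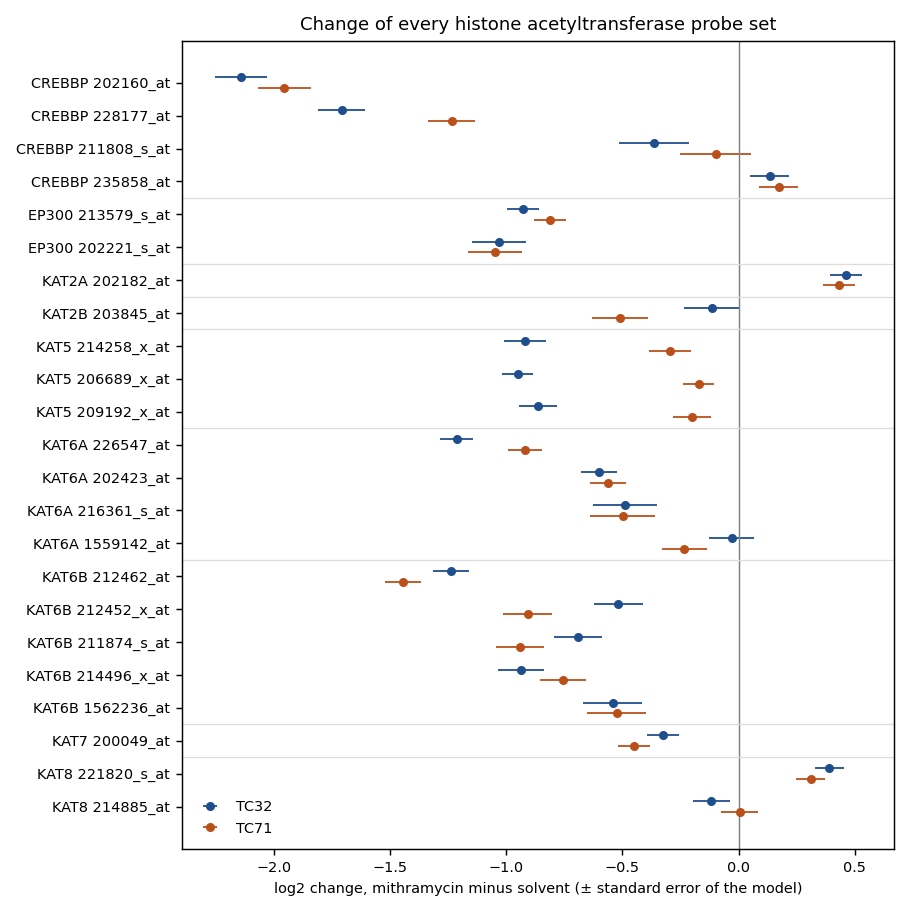
Log2 change with mithramycin of all 23 probe sets, 1 row per set and grouped by gene, with TC32 in blue and TC71 in orange; bars are the standard error of the model, with 3 arrays per group. The sets of EP300 and KAT6B lie left of zero throughout, and the 4 CREBBP sets spread from -2.14 to 0.17. In the main fit only the 3 KAT5 sets have a called gap between the lines.

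The GCN5 family split. KAT2A, the GCN5 subunit of SAGA and ATAC, rose in both lines at its only set, 202182_at. Its TC32 arrays read 7.71, 7.69 and 7.71 with solvent and 8.26, 8.13 and 8.10 with mithramycin, and its TC71 arrays 7.01, 6.98 and 7.11 and then 7.40, 7.46 and 7.55. Every treated array was above every solvent array of its line. The rise was 0.46 ± 0.07 in TC32, 1.38-fold (adjusted p = 1.52e-04), and 0.43 ± 0.07 in TC71, 1.35-fold (adjusted p = 3.36e-04).

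KAT2B, the PCAF paralog of KAT2A, fell in TC71, the line with the higher level. Set 203845_at read 6.24, 6.45 and 6.28 in TC71 with solvent and 5.86, 5.73 and 5.84 with mithramycin. In TC32 it read 4.60, 4.47 and 4.86 and then 4.26, 4.70 and 4.63, so these groups overlapped near the array medians. The TC71 fall was 0.51 ± 0.12 (adjusted p = 5.96e-03), and the TC32 change was -0.11 ± 0.12 (adjusted p = 0.491). The difference of the effects, -0.40 ± 0.17, was not called (adjusted p = 0.225). The TC71 call was lost when the beta-actin difference entered the model, at -0.55 (adjusted p = 0.0522).

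In the MYST family, KAT5 was the only gene whose response was called different between the lines in the main fit. Some alternative fits called 4 or 5 member sets higher for this difference, more than the 3 of KAT5. The further sets are not named here. KAT5 encodes TIP60, the acetyltransferase of the NuA4 complex that acts in transcription and at DNA breaks. Set 214258_x_at read 7.28, 7.23 and 7.24 in TC32 with solvent and 6.50, 6.23 and 6.26 with mithramycin. In TC71 it read 7.22, 7.08 and 7.30 and then 7.03, 6.87 and 6.82. KAT5 fell there by 0.92 ± 0.09 in TC32 (adjusted p = 3.68e-06) and by 0.30 ± 0.09 in TC71 (adjusted p = 0.0255). The TC71 call was lost in 7 alternative fits, among them the one without TC71 control replicate 1, at -0.28 (adjusted p = 0.0707). It was also lost without TC71 control replicate 3 (-0.24), TC71 mithramycin replicate 2 (-0.28) or replicate 3 (-0.25), with adjusted p from 0.0796 to 0.103.

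The remaining KAT5 sets gave the same picture. Set 206689_x_at went from 7.24, 7.21 and 7.16 to 6.32, 6.20 and 6.24 in TC32, and from 7.15, 6.99 and 7.14 to 6.98, 6.91 and 6.87 in TC71. Set 209192_x_at went from 7.14, 7.06 and 7.08 to 6.35, 6.29 and 6.06 in TC32, and from 6.99, 7.03 and 7.05 to 6.90, 6.84 and 6.71 in TC71. In TC32 these sets fell by 0.95 ± 0.07 and 0.86 ± 0.08 (adjusted p = 1.97e-07 and 2.65e-06), whereas in TC71 they stood at -0.17 ± 0.07 and -0.20 ± 0.08 and were not called (adjusted p = 0.0750 and 0.0849). The TC71 effect lay above the TC32 effect by 0.78 ± 0.09 at 206689_x_at (adjusted p = 2.85e-04), 0.66 ± 0.11 at 209192_x_at (adjusted p = 3.33e-03) and 0.62 ± 0.13 at 214258_x_at (adjusted p = 9.37e-03). Of the 23 sets these 3 were called higher for the difference and 0 lower, where 4.38% and 2.48% of all sets were called. The 3 sets read 1 gene. Among sets with a mean of at least 6, as these have, 8.14% were called higher and 3.19% lower. Among genes at their brightest set the shares were 5.18% and 2.83%. All 19 alternative fits that kept the KAT5 sets called the difference at each of them, with adjusted p of at most 0.0436. The suffix _x_at marks sets with probes shared by other sequences, and the part of such sequences in the values was not tested.

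**Figure D3:**
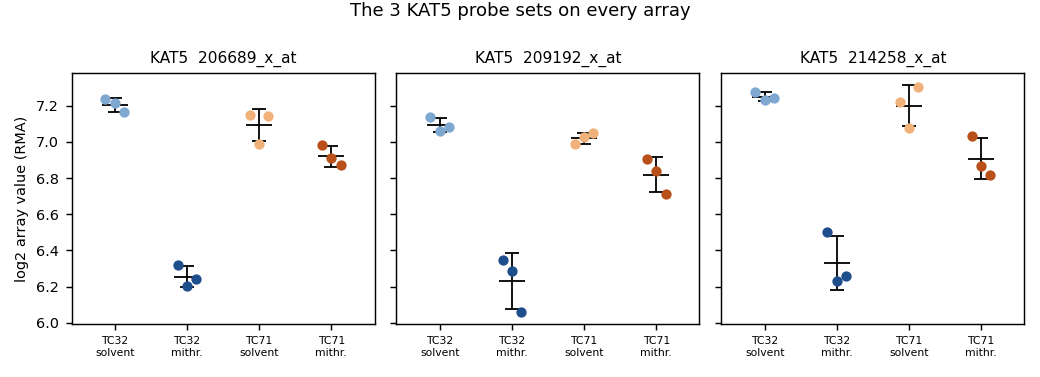
Log2 array value of the 3 KAT5 probe sets in the 4 groups of 3 arrays; points are arrays and bars the mean ± SD. At each set the TC32 mithramycin arrays (means of 6.23 to 6.33) lie below all other arrays, while the TC71 mithramycin arrays (6.82 to 6.92) lie just under their solvent arrays.

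KAT6A and KAT6B, the MOZ and MORF paralogs that acetylate histone H3, fell in both lines. KAT6A at its brightest set, 226547_at, read 8.53, 8.58 and 8.57 in TC32 with solvent and 7.19, 7.44 and 7.41 with mithramycin. In TC71 it read 9.09, 9.06 and 9.04 and then 8.19, 8.17 and 8.08. The groups were far apart in each line. The falls were 1.21 ± 0.07 in TC32, 2.32-fold (adjusted p = 4.15e-08), and 0.92 ± 0.07 in TC71, 1.89-fold (adjusted p = 7.21e-07). Their difference of 0.29 ± 0.10 was not called in the main fit (adjusted p = 0.120). Over the 4 KAT6A sets the change in the mean of both lines ran from -1.07 at that set to -0.13 at 1559142_at. The latter read 2.61 to 3.13 on all arrays, under the array medians, and was not called (adjusted p = 0.133). Sets 202423_at and 216361_s_at fell by 0.58 and 0.49 in the mean of both lines, the second of them also under the array medians.

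KAT6B at its brightest set, 212462_at, read 8.06, 8.25 and 8.09 in TC32 with solvent and 6.74, 7.01 and 6.94 with mithramycin. Its TC71 arrays read 8.23, 8.26 and 8.28 and then 6.83, 6.80 and 6.81. The treated arrays of both lines met near the same value, well under the solvent arrays. It fell by 1.24 ± 0.08 in TC32, 2.36-fold (adjusted p = 6.68e-08), and by 1.44 ± 0.08 in TC71, 2.72-fold (adjusted p = 2.74e-08). All 5 KAT6B sets were called lower in each line, from -1.34 at 212462_at to -0.53 at 1562236_at in the mean of both lines. The last of these read at most 2.97, so the size of its change is rough.

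KAT7, the HBO1 enzyme that acetylates histone H3 and H4 near replication origins, fell modestly at its only set, 200049_at. It read 8.20, 8.32 and 8.40 in TC32 with solvent and 8.01, 7.91 and 8.01 with mithramycin, and in TC71 7.53, 7.60 and 7.64 and then 7.20, 7.13 and 7.09. No treated array reached a solvent array of its line. The falls were 0.33 ± 0.07 (adjusted p = 2.65e-03) and 0.45 ± 0.07 (adjusted p = 2.88e-04).

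KAT8, the MOF enzyme that acetylates lysine 16 of histone H4, rose at its brightest set, 221820_s_at. The TC32 arrays read 8.04, 7.94 and 7.99 with solvent and 8.38, 8.38 and 8.39 with mithramycin. The TC71 arrays read 8.47, 8.36 and 8.49 and then 8.73, 8.72 and 8.81. Treated arrays were higher in each line without overlap. The rise was 0.39 ± 0.06 in TC32 (adjusted p = 2.84e-04) and 0.31 ± 0.06 in TC71 (adjusted p = 2.11e-03). The call in TC32 was lost with centring on hybridization controls, at 0.24 (adjusted p = 0.0882). The dimmer set 214885_at, between 4.88 and 5.29, stood at -0.12 ± 0.08 and 0.01 ± 0.08 and was not called in either line (adjusted p = 0.273 and 0.970). With both sets averaged KAT8 was at 0.14 in TC32 (adjusted p = 0.0544) and 0.16 in TC71 (adjusted p = 0.0355).

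Between solvent arrays, 7 of the 23 sets were called higher and 5 lower in TC71 than in TC32, which is 30.4% and 21.7% of them, where 20.7% and 21.9% of all sets were called. Among sets with a mean of at least 6, 5 of 12 members were higher and 3 lower, against 38.3% and 34.4% of such sets, so the members' shares were near those of the array. Centring on housekeeping genes moved the median of all sets by 0.21 in this comparison. It gave 11 member sets higher and 2 lower, with only KAT2A and KAT7 still lower. Under that centring 22010 of all 54613 sets were called higher and 6888 lower, so the calls of the whole array shifted the same way. The solvent groups also differed in the beta-actin difference, with means of 0.71 in TC32 and 1.45 in TC71. With it as a term, the calls over all sets went from 11963 lower and 11318 higher to 7855 and 8769. The part of RNA integrity in the differences named here was not tested. KAT2B was higher in TC71 by 1.68 ± 0.12 (adjusted p = 6.93e-08), a rough size, since its TC32 values lay just above the array medians. EP300 was higher in TC71 by 1.04 ± 0.12 at 202221_s_at and by 0.38 ± 0.07 at 213579_s_at (adjusted p = 5.73e-06 and 4.14e-04), so its sets gave the direction but not a common size. KAT6A was higher by 0.51 ± 0.07 and KAT8 by 0.45 ± 0.06 at their brightest sets. TC71 was lower in KAT7 by 0.72 on the log2 scale (-0.72 ± 0.07), in KAT2A (-0.66 ± 0.07) and in CREBBP at 202160_at (-0.43 ± 0.11, adjusted p = 6.69e-03). The CREBBP call was lost with centring on housekeeping genes, at -0.22 (adjusted p = 0.133). KAT5 and KAT6B were not called different at their brightest sets, at -0.05 ± 0.09 and 0.12 ± 0.08 (adjusted p = 0.717 and 0.231). Centring on housekeeping genes made KAT6B higher in TC71, at 0.34 (adjusted p = 2.86e-03), and put KAT5 at 0.17 (adjusted p = 0.134).

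Genes that encode partners of the acetyltransferases were taken from textbook lists, chosen with earlier results of these data known. Each gene has 1 value, at its brightest set, and unless a line is named the values are for the averaged lines. Of 81 partner genes 41 fell and 19 rose, where 20.2% and 30.9% of all genes did, and their median change was -0.11 against 0.08 over all genes. Most partner genes had a mean of at least 6, and of all sets that bright 33.2% fell and 34.8% rose. The counts per list below are to be read beside these shares. By line, 36 fell and 16 rose in TC32, where 18.5% and 23.1% of all genes did, and 35 fell and 14 rose in TC71, where 15.3% and 17% did. Listed genes such as TAF9, ATF1 and NCOA3 were not analysed here. None of the 60 called partner genes changed sign under either centring or a repeated quantile normalization.

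Coactivator partners of CBP and p300 and the BRPF and JADE scaffolds had the lowest medians. Of 8 CREB and coactivator partners 5 fell and 0 rose (median -0.58). NCOA2 and NCOA1, steroid receptor coactivators, fell by 1.46 ± 0.08 and 1.07 ± 0.08, and CRTC3, a coactivator of CREB, by 1.37 ± 0.07 in TC32 and 1.03 ± 0.07 in TC71. CRTC2 was at 0.15 ± 0.06 and was not called (adjusted p = 0.0612), but was called with quantile normalization again, at 0.25 (adjusted p = 6.24e-03). Of 8 subunits that scaffold KAT6A, KAT6B or KAT7, 5 fell and 1 rose (median -0.68). BRD1, which binds KAT7 and KAT6A, fell by 1.17 ± 0.05, whereas the reader subunit ING4 rose by 0.20 ± 0.05. The ING4 call was lost with centring on housekeeping genes, at 0.11 (adjusted p = 0.107), and on hybridization controls, at 0.16 (adjusted p = 0.10).

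The complexes of KAT5 and KAT8 held members that moved both ways. In the TIP60 complex 9 of 17 fell and 2 rose (median -0.17). EPC1, which holds the catalytic module together, fell by 1.41 ± 0.04, the reader YEATS4 fell by 1.16 ± 0.12 and the large scaffold TRRAP fell by 1.01 ± 0.05, while DMAP1 rose by 0.44 ± 0.05. Of 11 genes of the MSL and NSL complexes 6 fell and 2 rose (median -0.15). The NSL scaffold KANSL1 fell by 1.55 ± 0.05 and the methyl-lysine reader PHF20 fell by 1.27 ± 0.05, and MSL3 rose by 0.67 ± 0.06. KANSL1 and MSL3 each had a further set called in the opposite direction, at 0.39 and -0.38.

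Of 20 SAGA and ATAC subunits 9 fell and 9 rose (median -0.04). The split became 10 lower and 6 higher with centring on housekeeping genes (median -0.13), 8 and 6 with hybridization controls (median -0.07) and 8 and 8 with quantile normalization again (median 0.006). TADA2A fell by 0.74 ± 0.06, while TADA2B, its SAGA paralog, rose by 0.52 ± 0.06 at the brightest set, with -0.70 at another. Of 6 other acetyltransferase genes 4 fell and 1 rose (median -0.44), from CLOCK, the circadian factor, at -0.74 ± 0.05 to GTF3C4 at 0.32 ± 0.05. Of the BET readers of acetylated histones, BRD2 rose by 0.78 ± 0.05 and BRD3 fell by 0.50 ± 0.05, though another BRD3 set was called higher, at 0.26. Of 7 class I deacetylases and nuclear sirtuins 2 fell and 3 rose (median 0.12), from SIRT1 at -0.20 ± 0.07 to HDAC3 at 0.29 ± 0.04. ACLY and ACSS2, which make acetyl-CoA outside mitochondria, were not called, at -0.03 ± 0.04 and 0.08 ± 0.06. ACLY was called lower with centring on housekeeping genes, at -0.13 (adjusted p = 0.0316), and ACSS2 higher with quantile normalization again, at 0.19 (adjusted p = 0.0463).

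**Figure D4:**
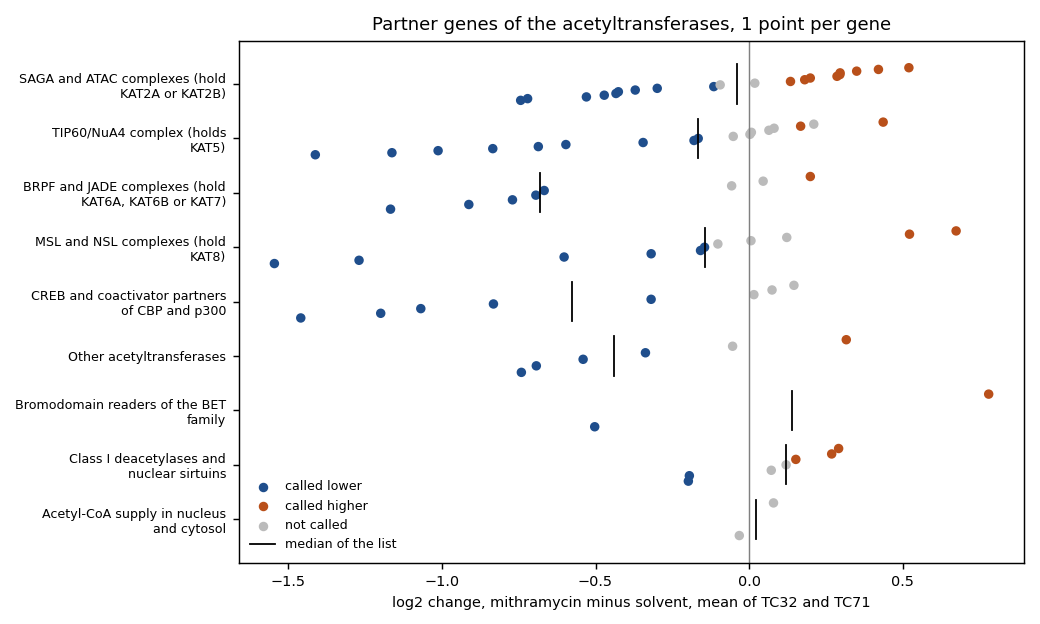
Log2 change with mithramycin in the mean of both lines for the partner genes of each list, 1 point per gene at its brightest set; colour gives the call and the black bar the median of the list. The medians of the BRPF and JADE list (-0.68) and the CREB and coactivator list (-0.58) lie farthest left, and that of the SAGA and ATAC list lies near zero.

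Genes with a pattern most like that of CREBBP and of EP300 were sought over the 8384 genes whose mean was 6 or more. Likeness was the root mean square difference of the 4 group means after taking off each gene's own mean. For CREBBP at 202160_at the nearest were MLLT10 (0.07), ARHGEF7 (0.10), ZSWIM6 (0.15), RAPGEF6 (0.15) and MAP3K5 (0.17). For EP300 at 213579_s_at they were FAM13B (0.02), SEC24B (0.04), HK2 (0.04), ARID2 (0.05) and KIF11 (0.06). The changes of MLLT10 were -2.20 in TC32 and -2.05 in TC71, and those of ARID2, a subunit of the PBAF remodelling complex, -0.87 and -0.77. With 4 group means from 12 arrays this is a description of these arrays.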

How the data were processed

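RNA from 12 dishes was measured on 1-colour oligonucleotide arrays, 1 array per dish. The deposited table holds log2 values per probe set, made by the authors with RMA per the submitters' processing notes; its version, settings and batches are not given in the sources used. The method equalizes the distribution of probe values, so changes are relative to the other transcripts, and values near the array median compress differences. Of 54675 probe sets 62 controls were left out. Symbols were updated through Entrez identifiers in a RefSeq table (GRCh38.p14), which matched 41037 of 41091 sets with 1 symbol.

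A linear model with 1 mean per group was fitted to all 54613 sets with limma 3.58.1 in R 4.3.3 (8 residual degrees of freedom), tested on simulated data. Contrasts were the mithramycin effect in TC32, in TC71, their mean, their difference, and the difference of the solvent groups. Two-sided p-values were adjusted by Benjamini-Hochberg over all sets, and sets under 0.05 were called. Partner genes used the same fit at the brightest of their sets. Alternatives changed the sets tested, centring (11 housekeeping genes, 18 hybridization control sets), normalization, variance prior, covariate, block and arrays.

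All CREBBP and EP300 sets were named, the brightest set of the other members with the extremes of the rest, and of each partner list the lowest and highest gene and those with a change of at least 1. The members and lists were chosen with earlier results of these data known. Promoter windows are those of RefSeq.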

Additional observations from a re-analysis of the deposited data

Results flagged for a closer look

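The mithramycin effect differed between the lines at the 3 KAT5 probe sets, by a test of the difference itself. The TC71 effect minus the TC32 effect was 0.78 ± 0.09 at 206689_x_at, 0.66 ± 0.11 at 209192_x_at and 0.62 ± 0.13 at 214258_x_at (limma, adjusted p = 2.85e-04, 3.33e-03 and 9.37e-03). All 3 treated TC32 arrays lay below all 3 treated TC71 arrays at each set. The groups of 3 arrays are too small for a search of single outlying arrays.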

How the results depend on the processing

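The 17 lower and 2 higher sets in the mean of both lines became 10 and 2 of 12 members with a mean of at least 6, and 8 and 1 of 12 without the _x_at and _s_at sets. In TC32 16 lower sets became 10 and 7 under these filters (1 higher without _x_at and _s_at sets), and in TC71 15 became 8 (1 higher) without _x_at and _s_at sets. Fewer members were tested in each case. With 1 value per gene, by the brightest set or the mean of sets, 6 genes of 9 were lower in TC32 and 7 in TC71 and in the mean, and 1 was higher in TC32 with the mean of sets. For the difference of the effects the 3 higher sets became 4 with a mean of at least 6 and 1 gene with either gene value. Without _x_at and _s_at sets, which leaves out KAT5, 0 were higher, and with hybridization controls or limma-trend 5 were. Over all 54613 sets, 2390 were called higher for this difference in the main fit, 5640 with hybridization controls and 3053 with limma-trend. With a mean of at least 6 it was 2080 of 15245 sets. Leaving out each array gave 0 to 1 lower (1 without TC32 mithramycin replicate 2). Centring on hybridization controls left 1 set higher in TC32. Between solvent groups the 5 lower and 7 higher sets became 3 lower (mean of at least 6, and hybridization controls), 3 and 4 (either gene value), 3 higher (without _x_at and _s_at sets) and 2 and 11 (housekeeping genes); leaving out each array gave 3 to 5 lower (3 without TC71 control replicate 2). The causes of the shifts with centring and variance prior were not tested. Centring on hybridization controls moved the median of all sets by -0.15 in TC32. Single-set values were followed under the alternatives for the CREBBP and EP300 sets and the brightest set of each other gene. In the fit with the mean of sets, the gene's average stood in for its brightest set. Of 833 such values 806 kept direction and side of the threshold, whatever their size. Of the rest, 10 lost and 14 gained a call, 3 uncalled values changed sign and 0 called values reversed. Replicate numbers did not pair the arrays: same-numbered arrays deviated together at correlations from -0.09 to 0.21. With the replicate number as a block 16 and 2 sets were called in TC32, 16 and 2 in TC71 and 17 and 2 in the mean. Signal over background was not analysed, so sets near the array medians limit what can be read from 2 CREBBP, 2 KAT6A and 1 KAT6B sets and from KAT2B in TC32.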

Other observations

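Among the 81 partner genes, 5 had a called difference between the lines, all with a deeper fall in TC32, and they are named after their values were seen. ING3, a reader subunit of the TIP60 complex that holds KAT5, fell by 1.09 ± 0.08 in TC32, was at -0.28 ± 0.08 in TC71 and had a difference of 0.81 ± 0.12 (limma, adjusted p = 8.12e-04). EPC1 of the same complex fell by 1.68 ± 0.06 and 1.15 ± 0.06 (difference 0.52 ± 0.09, adjusted p = 2.81e-03). The SAGA subunit TADA1 changed by -0.82 ± 0.09 (TC32) and -0.24 ± 0.09 (TC71) (adjusted p of the difference = 0.0176), and had another set called higher, at 0.48 in the mean of both lines. MSL2, the ubiquitin ligase of the MSL complex that holds KAT8, fell by 0.91 ± 0.09 and 0.29 ± 0.09 (adjusted p of the difference = 0.0116). For CRTC3 the falls differed by 0.34 ± 0.09 (adjusted p = 0.0477). These 5 genes are 6.17% of the partner genes, and 5.18% of all genes were called higher for this difference at their brightest set, so the share was near the background.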
